A study of Homo sapiens with 10 samples.

Results

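In RPMI-8402, an established T-ALL cell line (T-cell acute lymphoblastic leukaemia), 2511 of 13852 H3K4me3 regions carried a MYC peak and no H3K27ac region. These non-acetylated H3K4me3 regions with MYC made up 18.1% of all H3K4me3 regions (95% interval 17.5 to 18.8%). They were chosen by the peak lists themselves: an H3K4me3 region of set B on chromosomes 1 to 22 or X had to share no base with H3K27ac of set C, and at least 1 bp with MYC of set C or set D. H3K4me3, H3K27ac and MYC are therefore described here without a test. The lists of MYCN and H3K4me1 were not used in the choice.

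H3K4me3 is laid down around transcription start sites, and H3K27ac is added by acetyltransferases at promoters and enhancers in use. Most active promoters carry both marks, so an H3K4me3 region without H3K27ac departs from the usual pattern. MYC binds E-box DNA together with MAX and is found at a large part of the active promoters of a proliferating cell. MYCN is its paralogue, and H3K4me1 is typical of enhancers and of the shoulders of promoters. No annotation of hg19 was used here, so whether a region holds a start site was not tested, and regions are named by position only.

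The series held 10 CUT&RUN libraries of this line, with no drug or genotype named in the labels, in sets A to D with a control IgG library each. CUT&RUN cuts and sequences the DNA next to an antibody bound in the nucleus. Peak lists of 6 libraries were used, namely MYCN of set A, H3K4me3 of set B, MYC, H3K27ac and H3K4me1 of set C, and MYC of set D. Only MYC had 2 libraries, and the track lines of its lists name a common signal file. The labels also give MYC of set D as its own control, so that the independence of both libraries is unsettled. The lists hold positions and no height, so depth is unknown and the lack of a peak is not the lack of signal. All intervals are 95% intervals that cover counting over the listed regions, not the spread between cultures.

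The 2511 regions were of middling width. Their median width was 1073 bp (quartiles 542 and 1639.5 bp, range 180 to 7575 bp), and together they covered 3.01 Mb. The 8120 acetylated H3K4me3 regions with MYC had a median of 1682.5 bp, and the 2165 regions with neither H3K27ac nor MYC had a median of 380 bp. Acetylated regions without MYC, 1056 in number, lay between them with a median of 903 bp. Among all H3K4me3 regions, 33.8% lacked H3K27ac and 76.7% held MYC in at least 1 list. Of the 4676 that lacked H3K27ac, 53.7% held MYC (52.3 to 55.1%). These shares follow from the rule and are given only as the background of the choice.

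**Figure D1:**
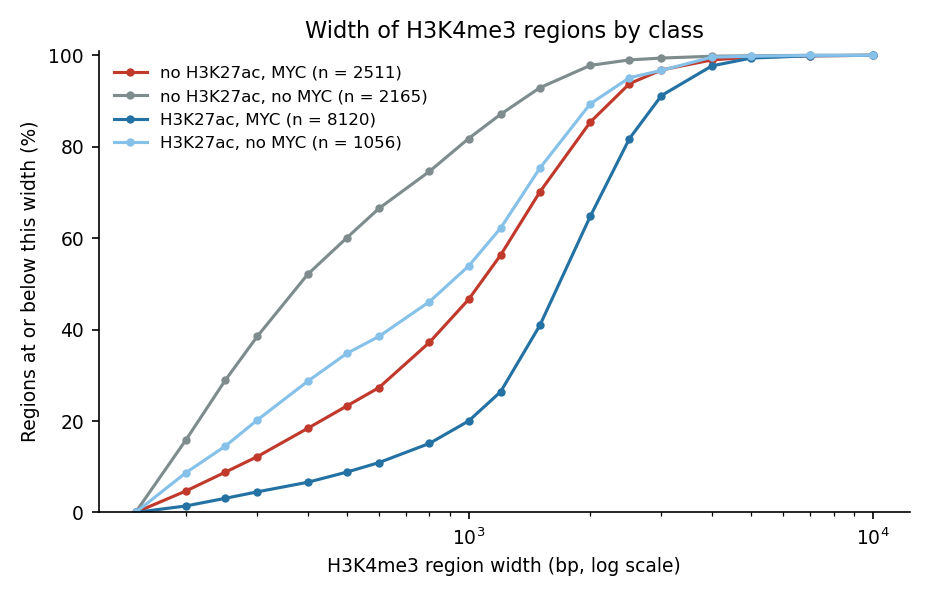
Cumulative share of H3K4me3 regions (vertical axis, percent) at or below each width (horizontal axis, bp, log scale), 1 line per class. The line of the 2511 non-acetylated regions with MYC, median 1073 bp, runs between that of the 2165 regions with neither, median 380 bp, and that of the 8120 acetylated regions with MYC, median 1682.5 bp.

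The MYC lists were made by different callers, so their counts are given side by side and not compared. Both MYC lists marked 987 of them (39.3%), set D alone 1228 (48.9%) and set C alone 296 (11.8%). Without the set D library 1283 members would be left, and without that of set C 2215. Among acetylated regions with MYC the shares were 61.9%, 34.2% and 3.90%. Over all H3K4me3 regions, 47.9% met MYC of set C, 72.3% met MYC of set D and 43.4% met both. The 3 kinds differed in width and surroundings, in the same order as among acetylated regions with MYC. Regions with MYC in both lists had a median width of 1254 bp, those with set D alone 1040 bp, and those with set C alone 541.5 bp. The nearest other H3K4me3 region lay at a median of 21372 bp for set D alone, 8083 bp for both and only 448 bp for set C alone. The last kind thus stood mostly beside other H3K4me3 regions. At acetylated regions with MYC these medians were 33491, 23272 and 2494 bp. Their median widths were 1846 bp for both lists, 1490 bp for set D alone and 1051 bp for set C alone. Over the whole lists, median MYC widths were 1165 bp in set C and 422 bp in set D.

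A part of the choice rested on narrow margins. Of the members, 36 had an H3K27ac region no more than 50 bp away, and 2 touched one without sharing a base. On the other side of that line, 41 acetylated regions with MYC shared no more than 50 bp with H3K27ac. MYC covered no more than 50 bp of 50 members, the least being 1 bp, while 51 non-acetylated regions without MYC had a MYC peak within 50 bp.

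The MYC peak centre lay inside the H3K4me3 region less often at members than at acetylated regions with MYC, which were wider. The choice used MYC and H3K27ac, so the intervals here describe the counts and are not a test. In set D the median offset of MYC from the middle of the region was 256.5 bp at members and 279 bp at acetylated regions. In set C it was 360 and 300.25 bp. Within each width bin the median offset was larger at members in both lists. From 1000 bp to under 2000 bp it was 314.75 against 280.5 bp in set D. In set D the centre of the MYC peak lay inside the H3K4me3 region at 1775 of 2215 members (80.1%, 78.4 to 81.8%) and at 92.4% of 7803 acetylated regions (91.8 to 93.0%). In set C it did so at 823 of 1283 members (64.1%, 61.5 to 66.8%) and at 88.0% of 5346 acetylated regions (87.1 to 88.9%). The span of highest signal that the set C list gives fell within the region at 868 of 1282 members (67.7%) and at 89.2% of 5334 acetylated regions. The share rose with width in both classes. Under 500 bp the set D centre was inside for 53.5% of members and 58.2% of acetylated regions, and from 2000 bp up for 95.3% and 98.7%. In set C it was inside for 23.9% and 37.8% under 500 bp, for 52.1% and 66.9% in the next bin, and for 92.4% and 98.2% from 2000 bp up.

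Where the MYC centre was not inside a member, it lay mostly outside H3K4me3 altogether. In set D, 339 of 2215 members (15.3%) had the centre in no H3K4me3 region, 52 (2.35%) in an acetylated neighbour and 49 (2.21%) in a non-acetylated neighbour. In set C the corresponding counts were 296, 107 and 57 of 1283. MYC peaks at members were also narrower than at acetylated regions in set D, with medians of 457 and 594 bp, and close in set C, with medians of 1186 and 1238 bp. MYC of either list covered a median of 50.4% of a member (quartiles 28.9 and 81.7%) and 53.5% of an acetylated region. Wholly under MYC lay 411 members (16.4%) and 942 of the acetylated regions (11.6%), which were wider. Less than 10% was covered at 3.62% of members and 1.06% of acetylated regions.

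**Figure D2:**
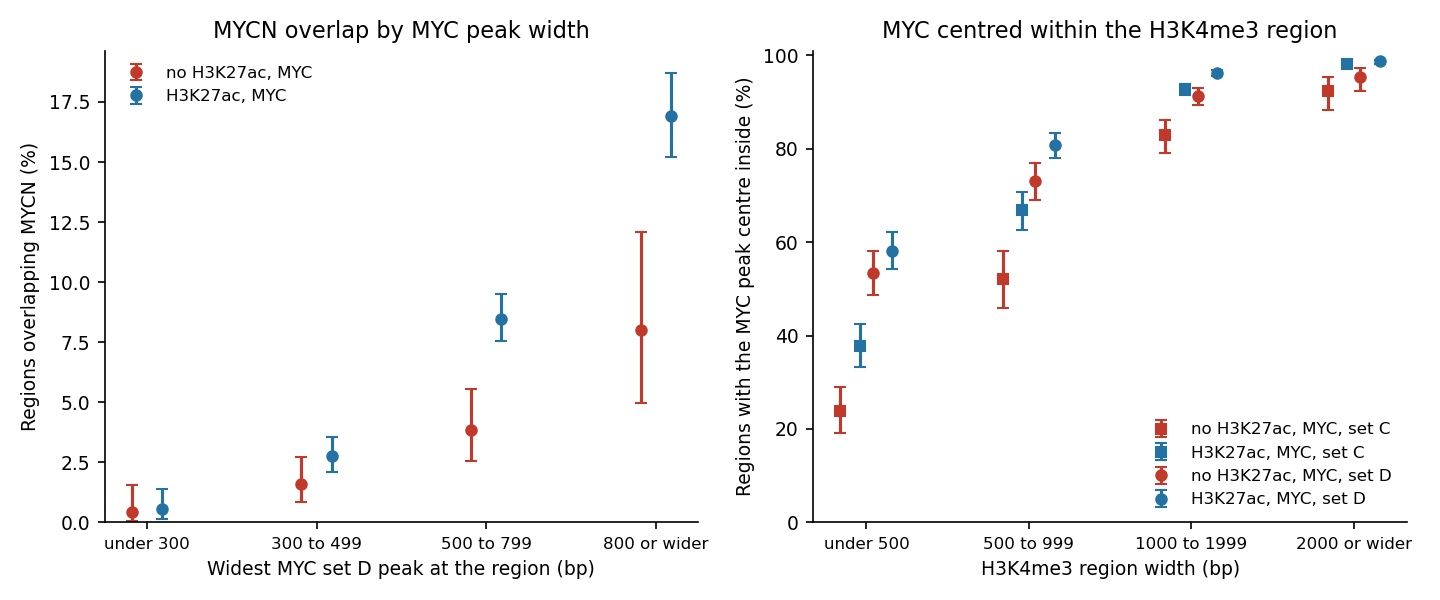
Left, share of regions overlapping MYCN (percent) by the width of the widest MYC set D peak at the region (bp). Right, share of regions with the MYC peak centre inside (percent) by H3K4me3 width (bp), squares for set C and circles for set D. Points are shares over regions, bars are exact 95% intervals, red is non-acetylated and blue acetylated. At the widest MYC peaks MYCN stands at 8.00% of non-acetylated and 16.9% of acetylated regions.

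Seen from the factor lists, the members took a small part of all binding. They met 1196 of 9498 MYC regions of set C (12.6%), 2168 of 18018 MYC peaks of set D (11.6 to 12.5%) and 64 of 895 MYCN peaks (7.15%, 5.55 to 9.04%). Of those MYC peaks, 196 in set C and 134 in set D also reached an acetylated H3K4me3 region with MYC, so neighbouring regions share a peak there. None of the 64 MYCN peaks did so.

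Most members stood alone, but a large minority belonged to a broken-up stretch of H3K4me3. Another H3K4me3 region lay within 1 kb of 771 members (30.7%, 28.9 to 32.6%), compared with 16.1% of acetylated regions with MYC and 53.0% of regions with neither. When regions within 1 kb were joined, 1740 members remained alone, 439 (17.5%) lay with other non-acetylated regions only, and 332 (13.2%) lay in a stretch that also held an acetylated region. Members with a near neighbour were narrower, with a median of 681 bp against 1221 bp for the others. Of the 771 nearest neighbours, 254 (32.9%) were acetylated with MYC, 29 (3.76%) acetylated without MYC, 293 (38.0%) of the members' own class and 195 (25.3%) had neither. The 332 members beside an acetylated region are pieces of a stretch that carries H3K27ac elsewhere.

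MYCN, which the choice did not use, was found at 62 of the 2511 regions (2.47%, 1.90 to 3.15%), below the 5.10% of all H3K4me3 regions. Acetylated regions with MYC held it at 642 of 8120 (7.91%, 7.33 to 8.51%), a difference of -5.44 percentage points (members minus acetylated, Newcombe interval -6.25 to -4.55). Regions with neither H3K27ac nor MYC held it at 1 of 2165 (0.0462%), a difference of 2.42 points (1.84 to 3.11). Both intervals lay clear of 0, but members were chosen to hold MYC and the regions with neither to lack it. Acetylated regions without MYC also rarely held MYCN, at 2 of 1056 (0.189%). The excess over regions with neither is thus not separate from the MYC used in the choice. Where the centre of the H3K4me3 region had to lie in each peak, the difference from acetylated regions with MYC shrank to -1.17 points (-1.86 to -0.468). That from regions with neither was 1.69 points (1.26 to 2.22).

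The lower MYCN share than at acetylated regions was seen at every width of the H3K4me3 region. It was 0.858% against 3.36% under 500 bp, 2.39% against 5.07% from 500 bp to under 1000 bp, 2.77% against 7.02% from there to under 2000 bp, and 4.35% against 11.1% at 2000 bp or more. The nearest of these 4 intervals to 0 ended at -0.662 points. The excess over regions with neither mark nor MYC held in the 3 narrower bins. In the widest bin the difference was 4.35 points (-3.39 to 6.95), with 0 of only 47 regions on the other side, an exact upper limit of 7.55% (3 counts of 47 would be 6.38%).

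In the next comparisons H3K4me3 width was not held fixed, and MYCN was counted over the H3K4me3 region, not over the MYC peak. MYCN was met at shares that varied with the MYC list and with the width of the MYC peak. It was met at 37 of 987 members with MYC in both lists (3.75%), at 25 of 1228 with set D alone (2.04%) and at 0 of 296 with set C alone, an exact upper limit of 1.24% (3 counts would be 1.01%). At acetylated regions the values were 10.2%, 4.61% and 0 of 317. By the widest MYC set D peak at the region, MYCN stood at 0.437% of members under 300 bp, 1.61% from 300 bp to under 500 bp, 3.85% from there to under 800 bp and 8.00% at 800 bp or more. At MYC peaks of 800 bp or more the difference from acetylated regions was -8.89 points (-12.2 to -4.54), and in the bin before it -4.63 points (-6.20 to -2.70). At MYC peaks under 300 bp it was -0.102 points (-0.999 to 1.09), from only 2 of 458 members and 4 of 742 acetylated regions. From 300 bp to under 500 bp it was -1.15 points (-2.20 to 0.135), with 1.61% of members against 2.77% of acetylated regions. No difference was resolved at these narrow MYC peaks, where few regions of either class held MYCN, so a lower share there is not excluded. The 62 members with MYCN had a median width of 1369 bp, and 1065 bp was the median of the rest. Of the 62, 31 had no H3K27ac within 5 kb, as had 1450 of all 2511 members. Another H3K4me3 region lay within 1 kb of 10 of the 62 and of 771 of all members (30.7%). H3K4me1 was also met by 7 of the 62, and by 274 of all members (10.9%).

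**Figure D3:**
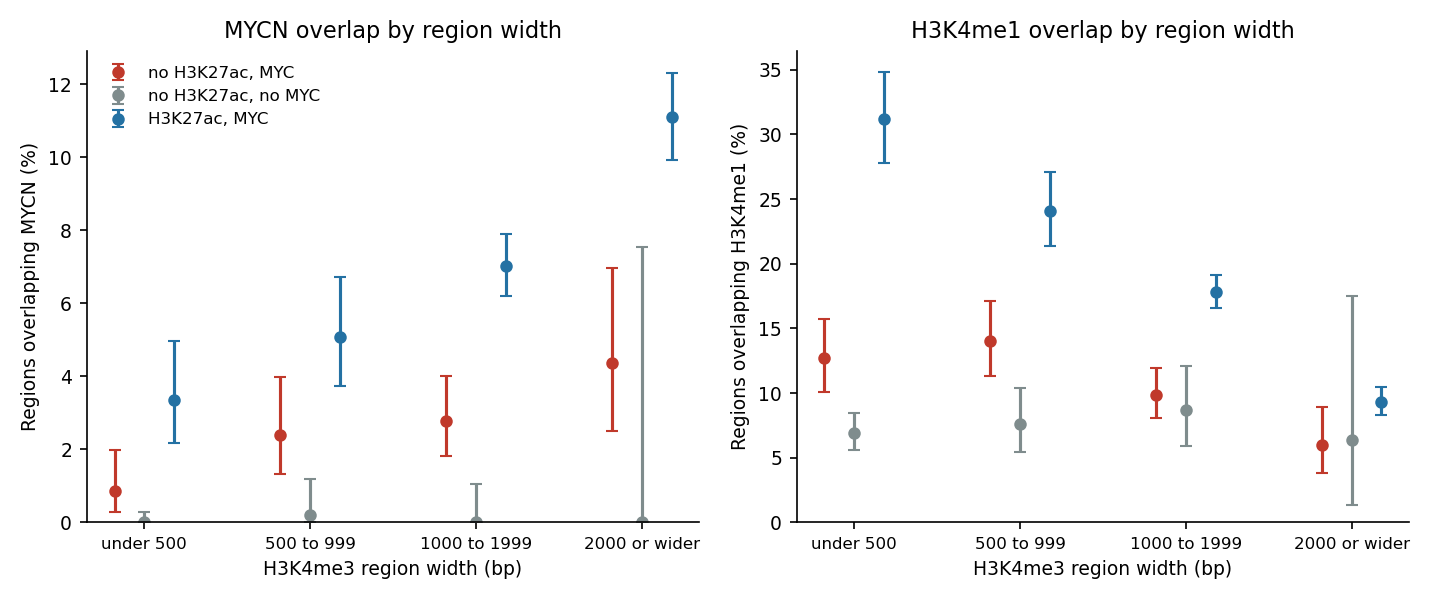
Share of H3K4me3 regions overlapping MYCN (left) and H3K4me1 (right), in percent, by H3K4me3 width in bp, for non-acetylated regions with MYC (red), non-acetylated without MYC (grey) and acetylated with MYC (blue). Points are shares over regions and bars exact 95% intervals. In every bin the red point lies below the blue one, from 0.858% against 3.36% to 4.35% against 11.1% for MYCN.

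H3K4me1, the other mark outside the choice, overlapped 274 members (10.9%, 9.72 to 12.2%), below the 14.4% of all H3K4me3 regions. It overlapped 16.7% of acetylated regions with MYC, a difference of -5.80 points (-7.22 to -4.29, and -3.23 points by centres), and 7.34% of regions with neither H3K27ac nor MYC, a difference of 3.57 points (1.92 to 5.21). Against acetylated regions the members were lower at every width, from -18.5 points (-22.8 to -14.1) under 500 bp to -3.37 points (-5.66 to -0.288) at 2000 bp or more. Against regions with neither, the excess was 5.78 points (2.89 to 8.98) under 500 bp and 6.37 points (2.60 to 10.1) in the next bin. From 1000 bp to under 2000 bp it was 1.18 points (-2.67 to 4.42) and in the widest bin -0.405 points (-11.4 to 4.69), so at wide regions no difference was resolved. With only the wider MYC peaks counted, the excess over all widths was 1.34 points (-0.411 to 3.20).

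H3K4me1 mostly lay off the middle of the members. Its centre lay a median of 77.9% of the way from the middle of the region to its edge, it covered the middle of 85 of the 274 regions, and it lay wholly inside the region at 98. Members with H3K4me1 had a median width of 892.5 bp, and those without it 1091 bp. The whole H3K4me1 list had a median width of 324 bp. An overlap of 1 bp at an edge counts, so the position depends on both widths. The position that these widths alone would give was not computed, and the other classes were not measured. With flanks of 5 kb the members stood above acetylated regions with MYC. Within 1 kb H3K4me1 was met by 23.9% of members (22.2 to 25.6%) and 26.2% of acetylated regions with MYC (25.2 to 27.1%), within 2 kb by 31.9% (30.0 to 33.7%) and 30.8% (29.8 to 31.8%), and within 5 kb by 46.2% (44.2 to 48.2%) and 38.9% (37.8 to 39.9%). The intervals overlapped at 1 and 2 kb. Acetylated regions without MYC stood at 34.8%, 40.1% and 47.9% with these flanks, and regions with neither H3K27ac nor MYC at 39.5% within 5 kb. In the 2 kb flanks H3K4me1 lay on 1 side of 647 members (25.8%) and on both sides of 72 (2.87%). These shares were 20.6% and 2.70% at acetylated regions with MYC, and 23.1% and 2.26% at regions with neither. At acetylated regions without MYC they were 29.8% and 6.91%, so H3K4me1 on 1 side was common in every class.

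The members were spread from the edge of acetylated chromatin to far outside it. The nearest H3K27ac region lay at a median of 7788 bp (quartiles 1895 and 28538 bp) from a member and at 3468 bp (1170 and 16671 bp) from a region with neither H3K27ac nor MYC. Within 1 kb, 448 members (17.8%) had an H3K27ac region, within 5 kb 1061 (42.3%) and within 50000 bp 2129 (84.8%). Members with MYC in set C alone were the nearest, with a median of 1839.5 bp, then those with both lists at 5952 bp and those with set D alone at 12884 bp. MYCN was met by 31 of the 1450 members with no H3K27ac within 5 kb (2.14%, 1.46 to 3.02%) and by 31 of the 1061 others (2.92%, 1.99 to 4.12%), and these intervals overlapped. H3K4me1 was met by 13.2% of the distant members (11.5 to 15.1%) and 7.73% of the near ones (6.19 to 9.50%). The excess of H3K4me1 over regions with neither H3K27ac nor MYC was 4.48 points (1.90 to 6.95) among distant regions and 1.46 points (-0.626 to 3.61) among near ones, and the gap between these was not tested.

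**Figure D4:**
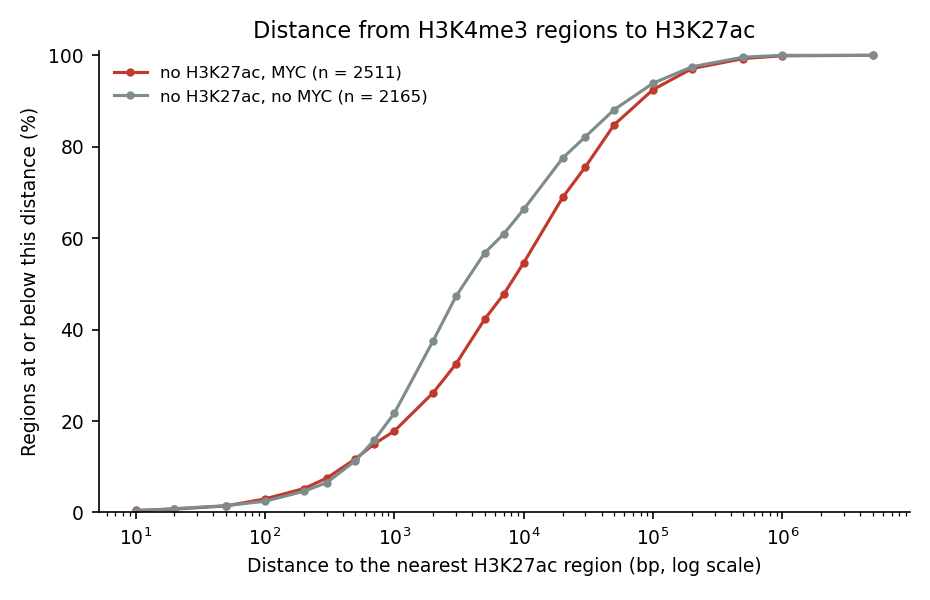
Cumulative share of non-acetylated H3K4me3 regions (vertical axis, percent) by distance to the nearest H3K27ac region (horizontal axis, bp, log scale), with MYC in red (n = 2511) and without MYC in grey (n = 2165). Up to 500 bp the lines run together, at 11.7% and 11.3%, and at 5000 bp they stand at 42.3% and 56.8%.

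The share of H3K4me3 regions in this state ranged from 11.2 to 25.3% over chromosomes. It was highest on chromosome 16 (25.3%, 148 of 586, 21.8 to 29.0%), chromosome 19 (25.1%, 259 of 1033, 22.5 to 27.8%) and chromosome 22 (24.6%, 82 of 333, 20.1 to 29.6%). It was lowest on chromosome 4 (11.2%, 56 of 500, 8.57 to 14.3%) and chromosome 3 (12.5%, 95 of 761, 10.2 to 15.0%). The steps behind these shares were not alike. Chromosome 16 had one of the larger shares without H3K27ac, 43.0%, of which 58.7% held MYC. On chromosome 19, 36.4% lacked H3K27ac, near the 33.8% of all, but 68.9% of these held MYC (63.9 to 73.5%). With chromosome 19 left out, 52.4% of non-acetylated regions held MYC and 17.6% of all H3K4me3 regions were members. Within chromosome 19, the MYCN difference from acetylated regions was -1.69 points (-4.10 to 1.40), with 7 of 259 members holding MYCN.

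H3K4me1 at the members varied with the chromosome too, as the chromosomes with most and fewest show, picked here on those values. It was met by 40 of 175 members on chromosome 17 (22.9%, 16.9 to 29.8%), 11 of 52 on chromosome 20 (21.2%, 11.1 to 34.7%) and 43 of 259 on chromosome 19 (16.6%, 12.3 to 21.7%). It was met by 3 of 110 on chromosome X (2.73%, 0.566 to 7.76%) and 0 of 52 on chromosome 13, an exact upper limit of 6.85% (3 counts would be 5.77%). All H3K4me3 regions were likewise high on the first 3 and low on the last 2 of these chromosomes, with 21.6% on chromosome 17, 24.5% on chromosome 20, 23.8% on chromosome 19, 3.93% on chromosome X and 3.17% on chromosome 13.

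**Figure D5:**
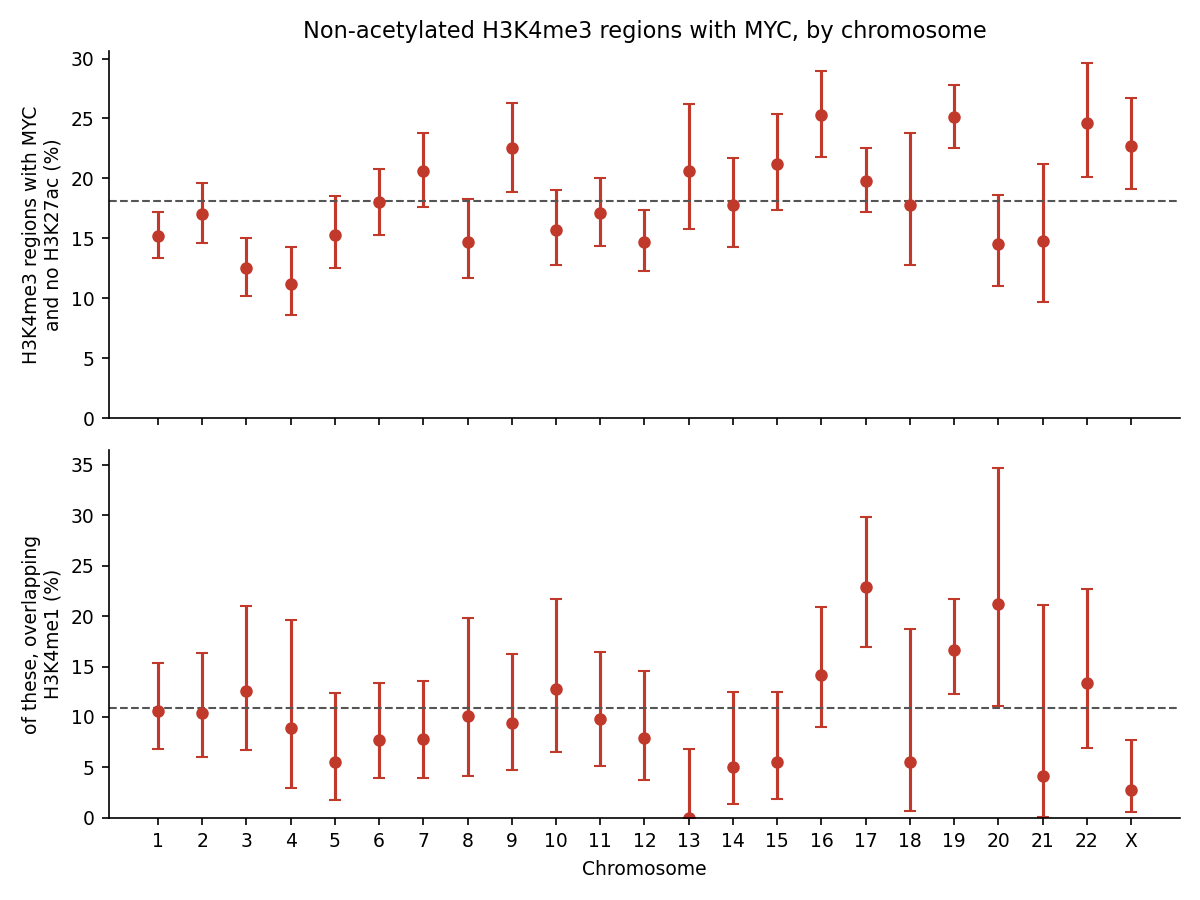
Top, non-acetylated regions with MYC as a share of the H3K4me3 regions of each chromosome (percent). Bottom, share of these members that overlap H3K4me1 (percent). Bars are exact 95% intervals and dashed lines the genome-wide values of 18.1% and 10.9%. The upper shares follow from the rule and are described without a test, the highest being those of chromosomes 16, 19 and 22. In the lower panel the bars of chromosomes 17, 19 and 20 lie above the line. Each chromosome is part of the genome-wide values, and no test was made between them.

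The widest members with MYC in both lists were broad H3K4me3 stretches with 1 or 2 MYC peaks in each list. The widest, on chromosome 7 from 23507853 to 23515427 (7575 bp), held 2 MYC peaks in each list, of which the widest in set D was 431 bp, and lay 55315 bp from H3K27ac. Next came chromosome 6 from 26194907 to 26201098 (6192 bp), which was 91.8% covered by MYC, and chromosome 21 from 47740356 to 47745767 (5412 bp). The region on chromosome 13 from 111363922 to 111369165 (5244 bp) held 2 MYC peaks in each list. On chromosome 6, the regions from 135501624 to 135506848 (5225 bp) and from 21593626 to 21598744 (5119 bp) had H3K27ac 3003 and 3934 bp away. None of the 10 widest held MYCN. Those on chromosome 17 from 56406551 to 56411608 and chromosome 10 from 102105739 to 102110260 met H3K4me1, and both were the widest members to do so. Not every member of this group was far from acetylation, since that on chromosome X from 12991780 to 12996436 (4657 bp) had H3K27ac 41 bp away and only 7.41% of it lay in MYC.

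Of the 10 widest members with MYCN, 4 were on chromosome 7. These were the regions from 87504213 to 87508031 (3819 bp, MYCN peak of 454 bp), from 45023834 to 45026865 (3032 bp), from 75986239 to 75989170 (2932 bp, with 2 MYCN peaks) and from 6143614 to 6146338 (2725 bp). The region on chromosome 8 from 98787345 to 98790956 (3612 bp) had the widest MYCN peak of the group, at 593 bp. This region also met a MYC set D peak of 1193 bp. That on chromosome 2 from 96873101 to 96875533 (2433 bp) held 2 MYCN peaks and lay 42427 bp from H3K27ac. MYC was in both lists at 7 of the 10 and in set D alone at 3.

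The members with the widest MYC set D peaks mostly lay beside an acetylated H3K4me3 region. Of these 10, 8 had an H3K4me3 region acetylated and with MYC as nearest neighbour within 1 kb, and at 8 the centre of the MYC peak lay outside the member. The widest peak, 1766 bp, reached the region on chromosome 12 from 57482822 to 57484104, where H3K27ac lay 434 bp away and an acetylated H3K4me3 region 287 bp away. On chromosome 19, 1 MYC peak of 1532 bp covered both the region from 9902252 to 9902669 and that from 9902843 to 9903326. The exceptions with the centre inside were the latter and the region on chromosome 17 from 2295350 to 2297140 (1791 bp), 89.2% of which lay in MYC.

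The members farthest from H3K27ac were on chromosome X from 92927742 to 92929443, at 3010510 bp, chromosome 13 from 35516204 to 35517136, at 1056793 bp, and chromosome 7 from 145813117 to 145813296, at 1032340 bp. These 3 had MYC in set D alone, with peaks of 284, 271 and 262 bp. The next, on chromosome 2 from 145089065 to 145090345, at 997833 bp, had MYC in both lists and 85.9% of it lay in MYC.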

How the data were processed

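The deposited lists give each peak's start and end in bases, with no score or height. The build, hg19, is taken from the submitters' processing notes. H3K4me3 peaks come from MACS2, MYC of set C from SEACR in stringent mode on paired reads, MYC of set D from MACS2 on unpaired reads and MYCN from cutruntools, per the file headers. The H3K27ac and H3K4me1 files carry no header. Callers differ between lists, which can change numbers and widths of peaks. Regions on other sequences were left out. Overlap means 1 bp or more. Shares have exact Clopper-Pearson intervals and differences of shares Newcombe intervals, at 95%. Each target but MYC has 1 library, so no p-value is given. The self-test recovered 400 of 400 planted overlaps among 1000 regions, and counts equalled those of bedtools 2.31.1 for all 5 lists set against H3K4me3. Intervals were computed with scipy 1.17.1 under Python 3.11.15, and plots drawn with matplotlib 3.10.9. The members, bins and lists were chosen with earlier results of these data known. Named regions are the 10 widest members with MYC in both lists, with MYCN and with H3K4me1, the 10 with the widest MYC set D peak, and the 5 nearest to and 5 farthest from H3K27ac. An hg19 genome or annotation was not used here, so genes and sequences are not given and the planned descriptions of gene families, start sites and E-boxes were not made.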

Additional observations from a re-analysis of the deposited data

How the results depend on the processing

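Of 84 recomputed values, 63 stayed within the interval (or, for the number of regions, within 1.5 times) of the reported one. None of the differences among them changed sign, and the counts and shares could not. The 2511 regions became 1450 with no H3K27ac allowed within 5 kb, 987 with MYC required in both lists, 1556 with the wider MYC peaks only, and 1283 to 2215 with either MYC library left out. The MYCN share of 2.47% became 3.75% with both lists, 3.60% with wider MYC peaks and 1.78% where the centre of the H3K4me3 region had to lie in each peak. The H3K4me1 share of 10.9% became 3.59% by centres, 9.38% with 50% of the shorter interval shared, 13.2% both with the 5 kb limit and with regions joined within 1 kb, and 12.3% with MYC centres required inside, an alternative chosen after seeing the data, as was leaving out chromosome 19. Against acetylated regions with MYC, the MYCN difference was -1.17 points by centres, -6.47 with both lists and -6.73 to -5.43 with either MYC library left out, and the H3K4me1 difference was -3.23 by centres and -2.43 with the 5 kb limit. Against regions with neither, the MYCN difference was 1.69 by centres and 3.37 with wider MYC peaks, and the H3K4me1 difference 1.69 by centres and 1.34 (-0.411 to 3.20) with wider MYC peaks, where its interval reached 0. Counting by centres also moves regions between classes, and the cause of its smaller values was not tested. Depth is unknown, so what it limits cannot be stated. Alternatives for start sites and E-boxes were not run.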

Other observations

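A stricter subset, defined with results of these data known and so given without a test, had MYC in both lists, no H3K27ac within 5 kb and no other H3K4me3 region within 1 kb. It held 409 regions (16.3% of the 2511) with a median width of 1415 bp, wider than the 1073 bp of all members. MYCN was met by 14 of them (3.42%) and H3K4me1 by 72 (17.6%), and their median distance to H3K27ac was 19571 bp. Over all H3K4me3 regions these shares were 5.10% and 14.4%. At acetylated regions with MYC and no other H3K4me3 region within 1 kb they were 8.21% and 17.7%. The distance follows in part from the 5 kb limit.

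Some stretches of the genome held many members, chosen here as the windows of 1 Mb with most members. Such a count also depends on how many H3K4me3 regions a window holds. Picking windows by their members also tends to raise the share of members in them, so these shares are a description only. The fullest, on chromosome 11 from 64500001 to 65500000, held 17 members among 55 H3K4me3 regions (30.9%, against 18.1% over all chromosomes). The lowest share among the 10 fullest was 29.3%, on chromosome 17 from 79500001 to 80500000 (12 of 41). On chromosome 19 the window from 40000001 to 41000000 held 12 members among only 18 H3K4me3 regions (66.7%), and that from 7000001 to 8000000 held 14 among 22 (63.6%). Of the 10 fullest windows, 4 were on chromosome 19.

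Joined within 1 kb, 144 stretches held 2 members, 9 held 3 and 2 held 4. The stretch on chromosome 7 from 45038221 to 45041258 held 4 members and no acetylated region, and met 1 MYC peak in each list, though the set D peak did not reach every member. That on chromosome 11 from 65336851 to 65343844 held 4 members and 1 acetylated region.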
